A study of Mus musculus with 6 samples.

Results

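The cadherin superfamily genes of the deposited RPKM table were examined in 3 sorted subsets of mouse dorsal root ganglion cells. Members were the genes whose symbol is Cdh followed by a number, or Pcdh followed by a number or by the letters of a protocadherin cluster, and 93 of the 23029 genes in the table met this rule. They comprised 5 type I classical cadherins, 13 type II classical cadherins, 5 other Cdh genes, 4 delta1, 5 delta2 and 3 other single protocadherins, and 14 Pcdha, 22 Pcdhb and 22 Pcdhg genes of the clustered protocadherins. All cells came from dorsal root ganglia of GINIP+/mcherry mice, which carry a fluorescent reporter at 1 allele of the gene for GINIP, so the reporter allele was shared by every group. DP cells bound the lectin IB4 and expressed the reporter (IB4+GINIP+) and are named by the labels as Mrgprd+ neurons, a class of nociceptor that innervates the skin. C-LTMR cells (IB4-GINIP+) are touch neurons with unmyelinated fibres (C-fibre low-threshold mechanoreceptors). DN cells (IB4-GINIP-) are whatever remained after the gates and hold several neuron classes. There were 2 libraries per subset, which is the n of all means and SDs. No treatment other than the sort is named, and age, sex, pooling of animals and whether the 2 libraries of a subset came from separate animals are not given, and the p-values therefore reflect just the variation among these samples, possibly technical.

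Classical cadherins are calcium-dependent adhesion proteins that bind cadherins of the same or a closely related kind on a neighbouring cell and are tied to actin through catenins. Type I members carry the HAV motif in the outermost repeat and give strong adhesion, whereas type II members lack it and are expressed in combinations that differ between neuron classes. Single protocadherins of the delta group are weaker adhesion molecules that signal to actin regulators, and the clustered protocadherins are chosen by stochastic promoter use in individual neurons and serve in self-recognition of neurites.

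Depth estimated from the steps of low values ranged over the libraries from 32.3 to 42.1 M reads, and 3 reads on a transcript of 2.5 kb correspond to 0.0285 to 0.0372 RPKM (reads per kilobase of transcript and per M reads), a floor that covers counting error only. Replicates correlated across genes with r = 0.994 for DP, 0.992 for C-LTMR and 0.986 for DN. The 8 markers of Mrgprd nociceptors summed to 1261 and 1300 RPKM in DP against 77.7 to 240 in the other libraries, and the 8 C-LTMR markers to 1531 and 1546 RPKM in C-LTMR against 27.4 to 228, so both sorts matched their labels. Summed over their lists, markers of satellite glia were at 7337 and 17124 RPKM in DN against 709 to 1991 elsewhere, and endothelial markers other than Cdh5 at 464 and 772 against 11 to 53.4. DN replicate 2 was the higher of the DN libraries for both lists. Immune cell markers were at 224 and 251 RPKM in DP, 1.31 and 1.54 in C-LTMR and 41.0 and 71.8 in DN, and their part in the results of DP was not tested.

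Of the 93 members, 67 passed a filter of a mean of 0.1 RPKM over all 6 libraries and were tested, and 26 were below it. Some members called below passed only through the subset where they were highest, with means under 0.1 RPKM in both others. These were Cdh5, Cdh7, Cdh12, Cdh26, Pcdh18, Pcdhga4 and Pcdhgb7. The same filter was applied to all genes. Differences were tested on log2(RPKM + 0.1) in 1 limma fit of all 6 libraries, and a gene was called when its BH-adjusted p was under 0.05 and its log2 fold change was 1 or more in size. This scale understates the change of low genes. The 3 comparisons share libraries, so they are not separate evidence. Between DP and C-LTMR, 16 members (23.9% of those tested) were called, where 15.1% of all 15004 genes tested were. Of the members, 4 (5.97%) were higher in DP, against 6.54% of all genes, and 12 (17.9%) in C-LTMR, against 8.56%. Between DP and DN, 29 members (43.3%) were called, against 32.9% of all genes, with 7 (10.4%) higher in DP, against 7.78%, and 22 (32.8%) in DN, against 25.1%. Between C-LTMR and DN, 31 members (46.3%) were called, against 31.7% of all genes, with 9 (13.4%) higher in C-LTMR, against 8.64%, and 22 (32.8%) in DN, against 23.1%. The median log2 fold change of the members was -0.09, -0.63 and -0.51, beside -0.05, -0.19 and -0.09 over all genes, in the same order. Of the 67 tested members, 43 were called in at least 1 comparison and 24 in none. The same count was not made over all genes, so it does not set the members apart. How the calls divided between the directions depended on the scaling between libraries. Under quantile normalization the split was 20 higher and 11 lower in DP against DN, and 21 higher and 10 lower in C-LTMR against DN. Over all 15004 genes it was 2412 higher and 2685 lower, and 2449 higher and 2560 lower. When libraries were scaled to 20 pan-sensory-neuron genes, the split between DP and C-LTMR was 7 higher and 7 lower, beside 1547 and 863 over all genes. The median log2 fold change of all genes moved with the scaling, from -0.19 to 0.15 for DP against DN and from -0.09 to 0.17 for C-LTMR against DN under quantile normalization, and from -0.05 to 0.31 for DP against C-LTMR under the pan-sensory-neuron scaling.

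**Figure D1:**
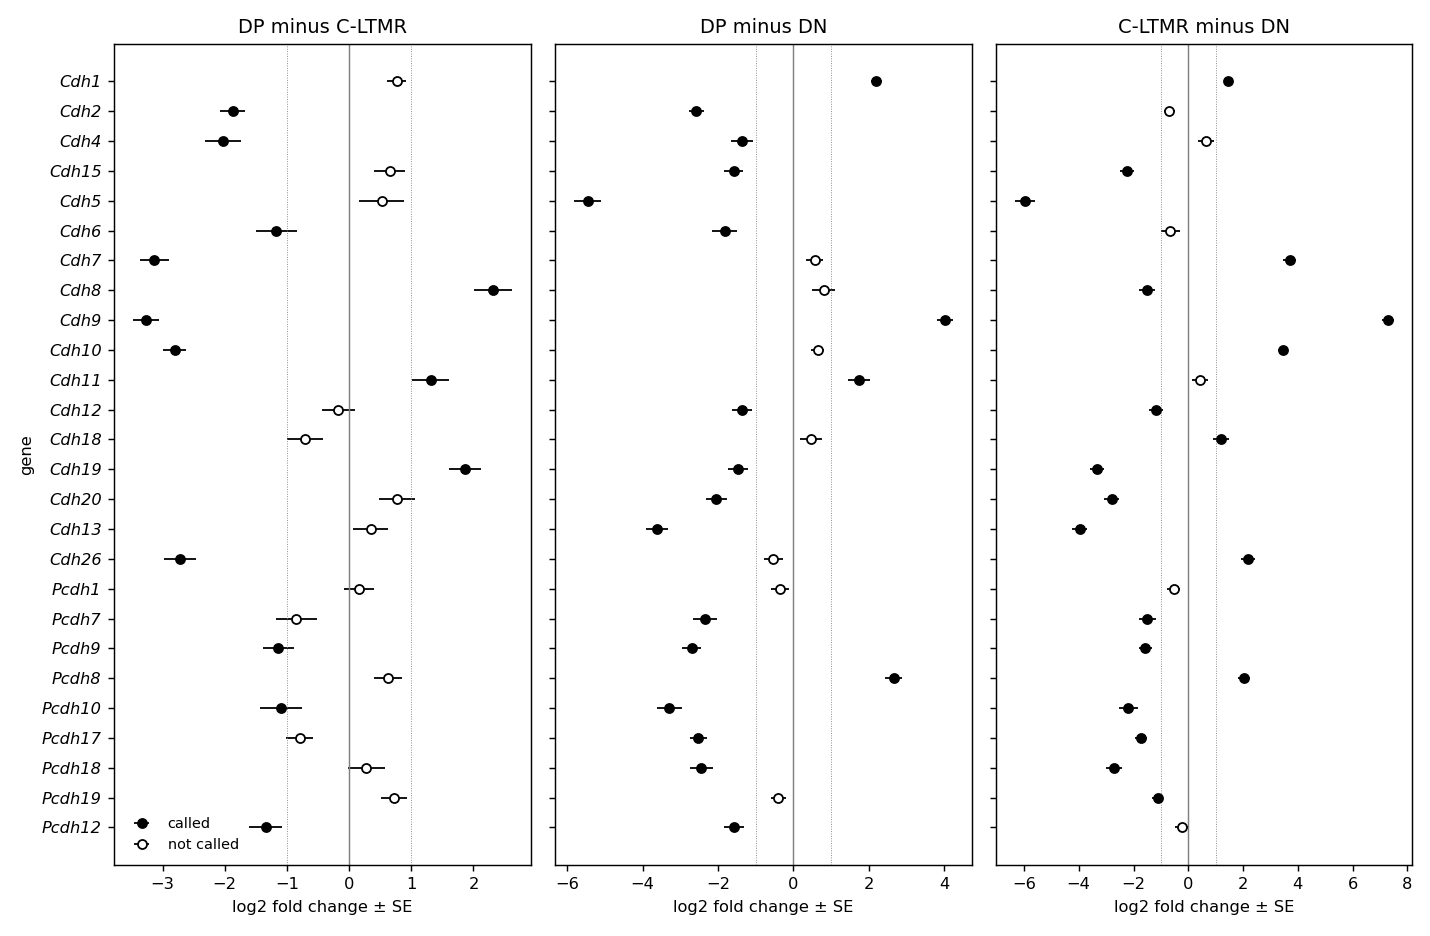
Log2 fold change ± SE on the log2(RPKM + 0.1) scale (x axis) of each tested Cdh gene and single protocadherin (y axis, 1 gene a line), in DP minus C-LTMR, DP minus DN and C-LTMR minus DN, with filled points for called and open points for other differences and dotted lines at -1 and 1. Cdh9 lies furthest to the right in C-LTMR minus DN (7.28) and Cdh5 furthest to the left (-5.98).

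The type I classical cadherins were led by Cdh1 (E-cadherin, Entrez 12550, chromosome 8, 106603368 to 106670246), the highest of all members in DP, C-LTMR and DN alike. Cdh1 was at 82.1 and 77.4 RPKM in the DP libraries, 43.5 and 50.6 in C-LTMR and 15 and 19.9 in DN, so the 3 subsets did not overlap. It was called higher than in DN in DP (2.20 on the log2 scale, SE 0.15, limma BH-adjusted p = 4.34e-05) and in C-LTMR (1.43, SE 0.15, adjusted p = 0.000255). The difference between DP and C-LTMR (0.76, SE 0.15, adjusted p = 0.00956) was under the fold criterion, and it reached it only under the pan-sensory-neuron scaling (1.12, adjusted p = 0.0122). Cdh2 (N-cadherin), the main classical cadherin of the nervous system, ran the other way. Its levels were 0.674 and 0.976 RPKM in DP, 2.89 and 3.65 in C-LTMR and 5.13 and 5.53 in DN, again without overlap. Cdh2 was lower in DP than in C-LTMR (-1.88, SE 0.21, limma BH-adjusted p = 0.000816) and than in DN (-2.57, SE 0.21, adjusted p = 8.63e-05), and these calls held in every alternative that tested the gene. Cdh4 (R-cadherin) was at 0.247 and 0.399 RPKM in DP, 1.23 and 2.05 in C-LTMR and 0.958 and 0.981 in DN, so DP was the lowest subset. It was called lower in DP than in C-LTMR (-2.02, SE 0.29, adjusted p = 0.00265) and than in DN (-1.36, SE 0.29, adjusted p = 0.00638). Both calls ended with a pseudocount of 1 (-0.98 and -0.58), and the second also under quantile normalization (-0.37, adjusted p = 0.282). Cdh15 (M-cadherin), known from muscle satellite cells, was at 2.14 and 2.82 RPKM in DP, 1.53 and 1.53 in C-LTMR and 5.86 and 9.64 in DN. Cdh15 was called higher in DN than in DP (DP minus DN -1.58, SE 0.25, adjusted p = 0.00175) and than in C-LTMR (C-LTMR minus DN -2.23, SE 0.25, adjusted p = 0.000372). Cdh3 (P-cadherin) was below the filter, with 0.0192 RPKM in its highest library. In bulk samples such as these, fewer cells of a type and less RNA per cell cannot be told apart.

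**Figure D2:**
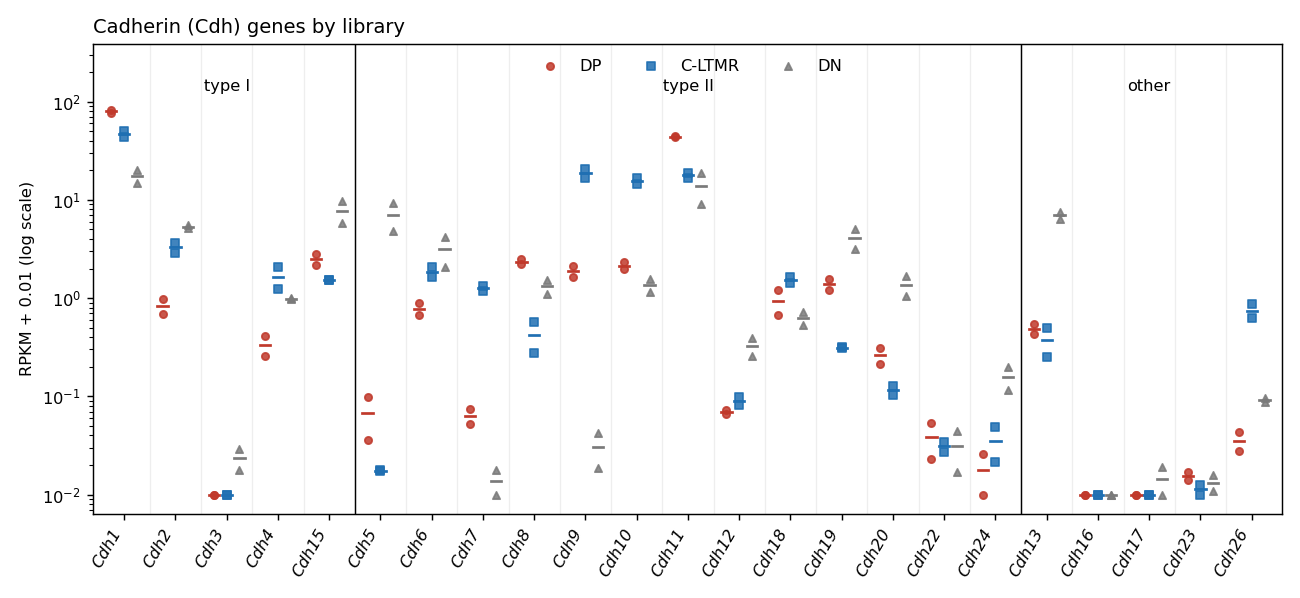
RPKM + 0.01 on a log axis (y) for each Cdh gene (x, by class), with a point for each library of DP, C-LTMR and DN and a short line at the mean of 2 libraries. Cdh1 is at the top in DP (82.1 and 77.4 RPKM), and Cdh9 and Cdh10 stand out in C-LTMR (14.4 to 20.8 RPKM).

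Of the 11 tested type II cadherins, 3 were called higher and 4 lower in DP against C-LTMR, 2 and 5 in DP against DN, and 4 and 5 in C-LTMR against DN, with median log2 fold changes of -0.17, 0.47 and -0.65. In percent of those tested this was 27.3 and 36.4 in DP against C-LTMR, where 6.54 and 8.56 of all genes were called, 18.2 and 45.5 in DP against DN (7.78 and 25.1), and 36.4 and 45.5 in C-LTMR against DN (8.64 and 23.1). The genes called higher in C-LTMR than in both other subsets were Cdh9, Cdh10 and Cdh7. Cdh9 (Entrez 12565, chromosome 15, 16778101 to 16856777) was at 20.8 and 16.6 RPKM in C-LTMR, 1.62 and 2.10 in DP and 0.00884 and 0.032 in DN. Cdh10 (Entrez 320873, chromosome 15, 18820329 to 19014234), a near relative of Cdh9, was at 14.4 and 16.7 RPKM in C-LTMR, 1.97 and 2.30 in DP and 1.14 and 1.55 in DN. Cdh7 (Entrez 241201, chromosome 1, 109983737 to 110139001) was far lower, at 1.32 and 1.17 RPKM in C-LTMR, 0.0425 and 0.0646 in DP and 0.00765 and 0 in DN. For all 3 genes the C-LTMR libraries lay above every other library. The promoters of Cdh9, Cdh10 and Cdh7 are shown because these were the type II members called higher in C-LTMR than in both DP and DN, beside that of Cdh8, which was lower there than in DP and DN. Each is the 250 bases before the RefSeq start of the gene, 5′ to 3′ on the strand of the gene, in RefSeq GRCm38.p6: chr15:16728665-16728914 (+) for Cdh9, chr15:18820079-18820328 (+) for Cdh10, chr1:109983473-109983722 (+) for Cdh7 and chr8:99416472-99416721 (-) for Cdh8. Capitals mark TGTGGT or its reverse complement ACCACA, the core that RUNX factors bind, and TAATTA, a core that many homeodomain proteins bind, both searched on both strands.
Cdh9: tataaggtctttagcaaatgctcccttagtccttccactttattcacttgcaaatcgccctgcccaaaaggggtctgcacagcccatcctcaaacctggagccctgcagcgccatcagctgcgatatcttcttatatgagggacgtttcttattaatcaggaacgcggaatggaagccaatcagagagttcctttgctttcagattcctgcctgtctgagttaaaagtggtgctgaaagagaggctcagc
Cdh10: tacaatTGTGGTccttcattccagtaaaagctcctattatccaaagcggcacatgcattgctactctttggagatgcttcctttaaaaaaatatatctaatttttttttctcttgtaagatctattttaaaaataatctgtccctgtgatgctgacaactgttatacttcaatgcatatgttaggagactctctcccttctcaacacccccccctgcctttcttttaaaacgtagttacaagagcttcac
Cdh7: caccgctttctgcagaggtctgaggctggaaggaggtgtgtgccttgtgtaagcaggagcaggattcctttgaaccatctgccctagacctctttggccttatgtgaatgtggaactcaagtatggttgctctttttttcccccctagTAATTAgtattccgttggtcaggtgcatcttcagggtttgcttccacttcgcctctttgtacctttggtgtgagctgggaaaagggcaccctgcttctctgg
Cdh8: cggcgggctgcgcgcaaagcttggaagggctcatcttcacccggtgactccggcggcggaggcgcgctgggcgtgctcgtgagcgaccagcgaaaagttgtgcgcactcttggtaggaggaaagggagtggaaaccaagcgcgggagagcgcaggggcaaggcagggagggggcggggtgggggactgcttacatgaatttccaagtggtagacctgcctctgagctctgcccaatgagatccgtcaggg
Cdh10 holds 1 TGTGGT at position -244 from the start and Cdh7 holds 1 TAATTA at position -102, whereas the Cdh9 and Cdh8 windows hold neither. Of 32851 windows of the same length, 14% hold the first motif and 4.84% the second, so a match is a description and not a site. The Cdh8 window is rich in G and C (64.4%) with 20 CpG, against 48.0% and 6 for Cdh9, 36.8% and 2 for Cdh10 and 50.4% and 3 for Cdh7, and a median of 52.4% and 6 over all windows. Cdh7 has 3 RefSeq windows, and the one nearest its listed start was used. The RefSeq start of Cdh9 lies 49186 bases from the start the deposited table lists for this gene.

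Against DP, Cdh9 was higher in C-LTMR by the test (DP minus C-LTMR -3.26, SE 0.21, limma BH-adjusted p = 0.000106), as were Cdh10 (-2.80, SE 0.18, adjusted p = 0.000107) and Cdh7 (-3.13, SE 0.23, adjusted p = 0.00016). Against DN, C-LTMR was higher for Cdh9 (7.28, SE 0.21, limma BH-adjusted p = 2.97e-06), Cdh10 (3.45, SE 0.18, adjusted p = 1.64e-05) and Cdh7 (3.70, SE 0.23, adjusted p = 3.04e-05). All 6 calls held in every alternative that tested the gene. Since Cdh9 and Cdh7 were near the level of a few reads in DN, the size of their difference depends on the pseudocount, and it was 9.36 and 6.56 with a pseudocount of 0.01 and 4.26 and 1.16 with 1. Cdh9 also separated DP from DN (4.02, SE 0.21, adjusted p = 1.71e-05), whereas Cdh10 (0.64, SE 0.18, adjusted p = 0.0206) and Cdh7 (0.56, SE 0.23, adjusted p = 0.0736) were not called there. In alternatives, Cdh10 was called between DP and DN under quantile normalization (1.47, adjusted p = 0.000698) and Cdh7 with a pseudocount of 0.01 (2.24, adjusted p = 0.00938). Cdh26, a cadherin outside the classical types, had a like profile, at 0.615 and 0.856 RPKM in C-LTMR, 0.0329 and 0.0181 in DP and 0.0768 and 0.0857 in DN, with the C-LTMR libraries above all others. It was called higher in C-LTMR than in DP (DP minus C-LTMR -2.72, SE 0.25, adjusted p = 0.000384) and than in DN (2.19, SE 0.25, adjusted p = 0.000405), calls that ended with a pseudocount of 1 (-0.76 and 0.68).

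Cdh11 (OB-cadherin, Entrez 12552, chromosome 8, 102632995 to 102785111) was the second most abundant member over the 6 libraries. It was at 44.5 and 43.6 RPKM in DP, 16.7 and 18.7 in C-LTMR and 9.11 and 18.8 in DN, so DP stood above every other library and C-LTMR and DN overlapped. Cdh11 was called higher in DP than in DN (1.74, SE 0.30, limma BH-adjusted p = 0.00233) in every alternative that tested it. It was called higher in DP than in C-LTMR (1.31, SE 0.30, adjusted p = 0.0171), but not when any of the 4 libraries compared was left out (adjusted p = 0.0896 and 0.08 without DP replicate 1 or 2, and 0.0864 and 0.0617 without C-LTMR replicate 1 or 2), with a log2 fold change of 1.23 to 1.40. The DN libraries differed widely from each other (13.9 ± 6.82 RPKM), with replicate 2 the higher. Cdh1 and Cdh11 together made up 90.9% and 88.8% of the summed RPKM of all Cdh genes in DP, 56.0% and 59.4% in C-LTMR and 41.9% and 44.8% in DN.

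Cdh8, which was chosen here after its values were seen, and Cdh19 were the type II members called lower in C-LTMR than in both other subsets. Cdh8 was at 2.20 and 2.48 RPKM in DP, 0.265 and 0.558 in C-LTMR and 1.52 and 1.10 in DN. DP was the highest and C-LTMR the lowest subset, without overlap. Cdh8 was higher in DP than in C-LTMR (2.31, SE 0.31, limma BH-adjusted p = 0.00188), a call that held in every alternative that tested it. It was lower in C-LTMR than in DN (-1.51, SE 0.31, adjusted p = 0.00545), which ended under quantile normalization (-0.63, adjusted p = 0.12) and with a pseudocount of 1 (-0.71).

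Cdh5, Cdh19 and Cdh20 were the type II members with the largest differences in favour of DN over C-LTMR. Cdh5 (VE-cadherin), the adhesion protein of endothelial junctions, was at 4.76 and 9.38 RPKM in DN, 0.0894 and 0.0262 in DP and 0.00733 and 0.00777 in C-LTMR, so that the GINIP+ libraries were near the level of a few reads. Cdh5 was called higher in DN than in DP (DP minus DN -5.46, SE 0.37, limma BH-adjusted p = 4.09e-05) and than in C-LTMR (C-LTMR minus DN -5.98, SE 0.37, adjusted p = 2.8e-05). The size depended on the pseudocount, from -6.80 and -8.57 with 0.01 to -2.87 and -2.94 with 1. Of the 12 endothelial markers, 12 were called higher in DN than in DP and 11 than in C-LTMR, and their part in the Cdh5 difference was not tested. Tie1 was listed at 0 in both C-LTMR libraries, and Emcn and Slco1a4 in 1 each. Cdh19, known from Schwann cells and their precursors, was at 1.56 and 1.19 RPKM in DP, 0.306 and 0.298 in C-LTMR and 3.12 and 5.03 in DN, and the 3 subsets did not overlap. It was higher in DP than in C-LTMR (1.86, SE 0.26, adjusted p = 0.00228, ended with a pseudocount of 1 at 0.86), lower in DP than in DN (-1.47, SE 0.26, adjusted p = 0.00269, ended under quantile normalization at -0.86) and lower in C-LTMR than in DN (-3.34, SE 0.26, adjusted p = 7.22e-05). Cdh20 was at 0.202 and 0.302 RPKM in DP, 0.0939 and 0.116 in C-LTMR and 1.05 and 1.68 in DN, with the DN libraries above the rest. Cdh20 was called higher in DN than in DP (DP minus DN -2.04, SE 0.29, adjusted p = 0.000982) and than in C-LTMR (-2.80, SE 0.29, adjusted p = 0.000236), and the first of these calls ended with a pseudocount of 1 (-0.91). Of the glial lists, 10 of 11 Schwann cell and 8 of 8 satellite glia markers were called higher in DN against DP and against C-LTMR, and their part in the results of Cdh19 and Cdh20 was not tested. Schwann cell markers summed to 644 and 636 RPKM in DP, 1394 and 1377 in C-LTMR and 1979 and 2179 in DN. Between DP and C-LTMR, 3 of the 11 Schwann cell markers were called in favour of C-LTMR and 1 in favour of DP, but their median log2 fold change was 0.52, so the sum and the median differed in direction. Cdh5, Cdh11, Cdh15, Cdh19 and Cdh20 were each higher in DN replicate 2 than in DN replicate 1, as were the summed markers of satellite glia, Schwann cells and endothelium. This was not particular to these genes. Of the other tested Cdh genes, Cdh1, Cdh2, Cdh4, Cdh6, Cdh9, Cdh10, Cdh13 and Cdh26 were also higher in DN replicate 2, and Cdh7, Cdh8, Cdh12 and Cdh18 were lower.

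The remaining type II members were Cdh6, Cdh12, Cdh18, Cdh22 and Cdh24, and those given values here were chosen after their values were seen. Cdh6 was at 0.66 and 0.878 RPKM in DP, 1.63 and 2.07 in C-LTMR and 2.07 and 4.19 in DN, so DP was lowest. It was called lower in DP than in DN (-1.82, SE 0.33, limma BH-adjusted p = 0.00321). It was also called lower in DP than in C-LTMR (-1.17, SE 0.33, adjusted p = 0.0398), but this ended when any of the 4 libraries compared was left out (adjusted p = 0.201 and 0.0917 without DP replicate 1 or 2, and 0.0888 and 0.179 without C-LTMR replicate 1 or 2) and in 5 alternatives that kept all 6 libraries, namely quantile normalization (0.107), the pan-sensory-neuron scaling (0.174), a pseudocount of 1 (0.0874), no filter (0.0704) and no trend in the variance (0.0622). Cdh12 reached only 0.381 and 0.247 RPKM in DN and 0.0555 to 0.0881 elsewhere, and was called lower in DP (-1.36, SE 0.26, adjusted p = 0.00413) and C-LTMR (-1.19, SE 0.26, adjusted p = 0.00783) than in DN. Both calls ended under quantile normalization (-0.57 and -0.22) and with a pseudocount of 1 (-0.31 and -0.28), and the second without DN replicate 1 (-0.95). Cdh18 was at 0.668 and 1.19 RPKM in DP, 1.64 and 1.42 in C-LTMR and 0.72 and 0.525 in DN, with C-LTMR highest. It was called only between C-LTMR and DN (1.18, SE 0.29, adjusted p = 0.0112), and not without C-LTMR replicate 1 (adjusted p = 0.0624), without DN replicate 2 (0.077), under the pan-sensory-neuron scaling (0.82) or with a pseudocount of 1 (0.64). Under quantile normalization Cdh18 was also called higher in DP than in DN (1.46, adjusted p = 0.00443). Cdh22 and Cdh24 were below the filter, with at most 0.0437 and 0.19 RPKM in a library. By position, 5 Cdh genes lie on chromosome 15 (Cdh6, Cdh9, Cdh10, Cdh12 and Cdh18), and the profiles of these neighbours differed, with Cdh9, Cdh10 and Cdh18 highest in C-LTMR and Cdh12 highest in DN.

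Among the other Cdh genes, Cdh13 (T-cadherin), which is anchored in the membrane by a lipid and has no cytoplasmic tail, was at 6.39 and 7.55 RPKM in DN against 0.529 and 0.421 in DP and 0.491 and 0.243 in C-LTMR. The DN libraries were far above the rest, and DP and C-LTMR overlapped. Cdh13 was called lower in DP (-3.62, SE 0.28, limma BH-adjusted p = 7.64e-05) and in C-LTMR (-3.97, SE 0.28, adjusted p = 5.14e-05) than in DN in every alternative that tested it. Cdh23, a cadherin of hair cell tip links, and Cdh17 did not exceed 0.00895 RPKM in any library, and Cdh16 was listed at 0 in all 6.

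Delta protocadherins were mostly higher in DN, with Pcdh8 as the exception. Of the 3 tested delta1 genes, 2 were called higher in DN than in DP and than in C-LTMR, and of the 5 delta2 genes 3 and 4 were, with 1 called lower in DN each time. Over all genes, 25.1% and 23.1% were called higher in DN than in DP and in C-LTMR, so both groups were above that share, on 3 and 5 genes. Pcdh9, a delta1 member with a very long gene, was at 0.968 and 1.72 RPKM in DP, 2.84 and 3.10 in C-LTMR and 9.20 and 8.74 in DN, and the subsets did not overlap. It was lower in DP than in DN (-2.70, SE 0.25, limma BH-adjusted p = 0.000143) and in C-LTMR than in DN (-1.56, SE 0.25, adjusted p = 0.00168). The lower level in DP than in C-LTMR (-1.14, SE 0.25, adjusted p = 0.0143) lost its call without DP replicate 1 (-0.75), C-LTMR replicate 1 (adjusted p = 0.0564) and C-LTMR replicate 2 (adjusted p = 0.0781) under both scalings (-0.92 and -0.78) and with a pseudocount of 1 (also -0.78). Pcdh7, another delta1 member, was at 0.133 and 0.279 RPKM in DP, 0.449 and 0.422 in C-LTMR and 1.10 and 1.79 in DN, without overlap of the subsets. Pcdh7 was called lower in DP (-2.34, SE 0.32, adjusted p = 0.000888) and C-LTMR (-1.49, SE 0.32, adjusted p = 0.00687) than in DN, and the second call ended under quantile normalization (-0.62, adjusted p = 0.158) and with a pseudocount of 1 (-0.75). Pcdh1, chosen after its values were seen as the delta1 gene called nowhere, ranged from 0.906 to 1.79 RPKM. Pcdh11x was below the filter, at 0.0916 RPKM in its highest library.

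**Figure D3:**
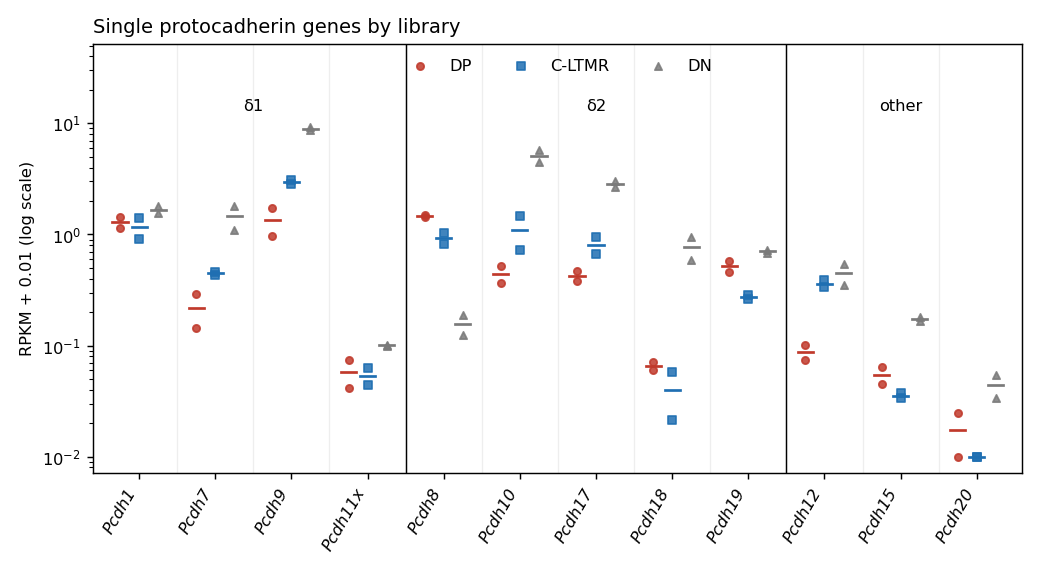
RPKM + 0.01 on a log axis (y) for each single protocadherin (x, by class), with a point for each library of DP, C-LTMR and DN and a short line at the mean of 2 libraries. Pcdh9 and Pcdh10 are highest in DN (8.74 to 9.20 and 4.48 to 5.70 RPKM), and Pcdh8 is lowest there (0.115 and 0.178 RPKM).

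In the delta2 group, Pcdh10 (OL-protocadherin) was at 0.354 and 0.513 RPKM in DP, 0.715 and 1.47 in C-LTMR and 4.48 and 5.70 in DN. It was called lower in DP (-3.29, SE 0.34, limma BH-adjusted p = 0.000228) and in C-LTMR (-2.19, SE 0.34, adjusted p = 0.00148) than in DN in every alternative that tested it. Its call between DP and C-LTMR (-1.10, SE 0.34, adjusted p = 0.0492) was lost without DP replicate 1 (adjusted p = 0.237), DP replicate 2 (0.0933), C-LTMR replicate 2 (0.206), DN replicate 1 (0.0845) or DN replicate 2 (0.0844), under both scalings (0.0725 and 0.169), with a pseudocount of 1 (0.099), without the filter (0.0846), without the variance trend (0.0721) and in a fit of the 4 libraries compared (0.0847). Pcdh17 was at 0.372 and 0.458 RPKM in DP, 0.94 and 0.662 in C-LTMR and 2.67 and 3.02 in DN, and the subsets did not overlap. It was called lower in DP (-2.52, SE 0.22, adjusted p = 0.000116) and in C-LTMR (-1.72, SE 0.22, adjusted p = 0.000631) than in DN. The intervals of Pcdh10 and Pcdh17 each overlap another listed gene (1700027H10Rik and 9630013A20Rik), and since strand use in the counting is not given, the levels of both are uncertain. Pcdh18 was at 0.585 and 0.934 RPKM in DN and at 0.0113 to 0.0605 in the other libraries, and was called lower in DP (-2.44, SE 0.30, adjusted p = 0.000519) and C-LTMR (-2.71, SE 0.30, adjusted p = 0.000322), though not with a pseudocount of 1 (-0.73 and -0.77). Pcdh19, whose human counterpart is mutated in a form of epilepsy, was at 0.447 and 0.569 RPKM in DP, 0.278 and 0.254 in C-LTMR and 0.718 and 0.672 in DN. It was called only between C-LTMR and DN (-1.12, SE 0.21, adjusted p = 0.00351), not under quantile normalization (-0.14) or with a pseudocount of 1 (-0.42), and under the pan-sensory-neuron scaling it was also called higher in DP than in C-LTMR (1.08).

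Pcdh8 (arcadlin, a protocadherin induced by neuronal activity) was the delta member called in the other direction. Its levels were 1.47 and 1.43 RPKM in DP, 0.803 and 1.02 in C-LTMR and 0.115 and 0.178 in DN, without overlap. It was called higher in DP than in DN (2.66, SE 0.22, limma BH-adjusted p = 9.77e-05) and in C-LTMR than in DN (2.04, SE 0.22, adjusted p = 0.000308), while DP and C-LTMR were not called apart (0.63, SE 0.22, adjusted p = 0.0787). With a pseudocount of 1 the call between C-LTMR and DN ended (0.73). Of the other single protocadherins, Pcdh12 (VE-cadherin-2), known from endothelial cells, was at 0.0638 and 0.0921 RPKM in DP, 0.324 and 0.377 in C-LTMR and 0.344 and 0.527 in DN, so DP was lowest and C-LTMR and DN overlapped. Pcdh12 was lower in DP than in C-LTMR (-1.34, SE 0.26, adjusted p = 0.00918) and than in DN (-1.57, SE 0.26, adjusted p = 0.00202). The first call was lost without DP replicate 1 (adjusted p = 0.0682), C-LTMR replicate 2 (0.0605) or under the pan-sensory-neuron scaling (0.0654), the second under quantile normalization (-0.72), and both with a pseudocount of 1 (-0.33 and -0.41). Its profile did not follow that of Cdh5, which was near 0 in C-LTMR. Pcdh15 and Pcdh20 were below the filter, at most 0.172 and 0.0441 RPKM.

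The 3 protocadherin clusters lie side by side on chromosome 18, with Pcdha from 36930285 to 37187660, Pcdhb from 37264998 to 37521419 and Pcdhg from 37661945 to 37822134. Summed over its 14 genes, Pcdha was at 19.5 and 26.4 RPKM in DP, 26.1 and 31.6 in C-LTMR and 19.9 and 13.8 in DN. The 22 Pcdhb genes summed to 13.7 and 12.6 RPKM in DP, 13.9 and 11.9 in C-LTMR and 25.4 and 24.5 in DN, so DN stood apart. The 22 Pcdhg genes summed to 1.24 and 1.23 RPKM in DP, 1.56 and 1.67 in C-LTMR and 3.15 and 2.98 in DN. By these sums Pcdha held 61.5%, 66.5% and 37.5% of the clustered RPKM of DP, C-LTMR and DN, and Pcdhb 35.2%, 29.8% and 55.6%. The sums have no test. The interval listed for 13 of 14 Pcdha genes and for all 22 Pcdhg genes does not end where the RefSeq gene does. The longest interval, that of Pcdha2, spans 248456 bases, from after Pcdha1 to the end of the cluster. Pcdha4 is listed with 52 bases. The constant exons are shared by all genes of the Pcdha or Pcdhg cluster, and the Pcdhb genes are close copies, so the division of reads between members, and levels compared between genes of these clusters, are uncertain.

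**Figure D4:**
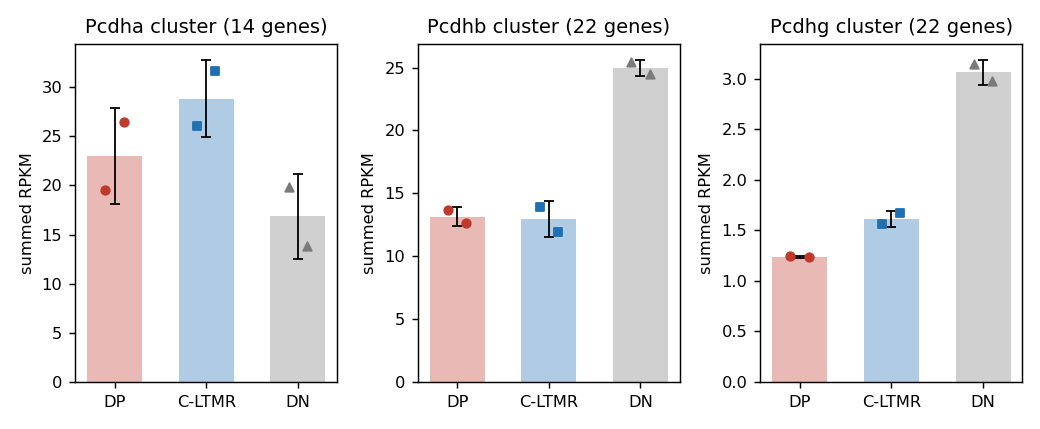
Summed RPKM (y axis from 0) of the Pcdha, Pcdhb and Pcdhg genes, with a bar and whisker for the mean ± SD of 2 libraries of DP, C-LTMR and DN and a point for each library. On RPKM as deposited the DN libraries are highest for Pcdhb (25.4 and 24.5) and Pcdhg (3.15 and 2.98). Under quantile normalization the median log2 fold change of C-LTMR against DN is above 0 for both (0.22 and 0.28, beside 0.17 over all genes). For DP against DN it is above 0 for Pcdhb and just below 0 for Pcdhg. Under the pan-sensory-neuron scaling DN stays highest, at 27.3 beside 14.3 (DP) and 10.97 (C-LTMR) for Pcdhb. For Pcdhg it is at 3.35 beside 1.34 and 1.37.

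In the Pcdha cluster all 14 genes passed the filter, and the DN libraries lay below for most of them. Of the 14, 3 were called between DP and DN and 2 between C-LTMR and DN, each lower in DN, and 1 between DP and C-LTMR. The calls against DN were 21.4% and 14.3% of the genes, where 7.78% and 8.64% of all genes were called lower in DN. The call between DP and C-LTMR was 7.14%, below the 8.56% of all genes called higher in C-LTMR. The median log2 fold changes were 0.71 and 0.75 against DN, beside -0.19 and -0.09 over all genes. Under quantile normalization 12 and 11 were called, each lower in DN, with medians of 1.64 and 1.53. Of all 15004 genes, 2412 and 2449 were called lower in DN under that setting, with medians of 0.15 and 0.17. That setting also raised DP minus DN for members outside the cluster, such as Cdh10 (0.64 to 1.47) and Pcdhb20 (-1.26 to -0.37). These moves exceeded that of the all-gene median (-0.19 to 0.15), so a shift of this size was not particular to Pcdha. Pcdhac2 (Entrez 353237, 37143969 to 37146530), a C-type gene, a kind expressed more evenly across neurons, was the highest clustered gene. It was at 3.47 and 4.50 RPKM in DP, 9.85 and 10.7 in C-LTMR and 7.11 and 5.08 in DN, with C-LTMR highest and DP lowest. Pcdhac2 was called higher in C-LTMR than in DP (DP minus C-LTMR -1.36, SE 0.20, limma BH-adjusted p = 0.00269) in every alternative that tested it, and was the only Pcdha gene called there in the main test. The genes Pcdha1 to Pcdha12 together were at 15.5 and 21.0 RPKM in DP, 15.3 and 20.2 in C-LTMR and 12.2 and 8.30 in DN, so DP and C-LTMR overlapped.

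Of the alternate Pcdha genes, which individual neurons choose at random, Pcdha4 gave the largest difference, at 0.654 and 0.883 RPKM in DP, 0.511 and 0.661 in C-LTMR and 0.242 and 0.0775 in DN. Its level was called higher in DP (1.81, SE 0.35, limma BH-adjusted p = 0.00404) and in C-LTMR (1.47, SE 0.35, adjusted p = 0.0103) than in DN, the second not without C-LTMR replicate 2 (adjusted p = 0.06) or DN replicate 2 (0.997, just under the fold criterion), and both calls ended with a pseudocount of 1 (0.61 and 0.45). Pcdha12, the highest alternate gene, was at 2.32 and 3.65 RPKM in DP, 2.75 and 4.32 in C-LTMR and 1.65 and 1.25 in DN, with both DN libraries lowest. It was called between C-LTMR and DN only (1.21, SE 0.30, adjusted p = 0.0116), and not without C-LTMR replicate 2 (adjusted p = 0.0696), DN replicate 2 (0.0872), under the pan-sensory-neuron scaling (0.85) or with a pseudocount of 1 (0.87). Its difference between DP and DN (0.97) was called under quantile normalization (1.77), with a pseudocount of 0.01 (1.01) and without DP replicate 1 (1.29). Pcdha1 and Pcdha2 were called higher in DP than in DN (1.24, SE 0.33, adjusted p = 0.016, and 1.16, SE 0.34, adjusted p = 0.0219). Both calls were lost without DP replicate 1 (adjusted p = 0.0812 and 0.0536), DP replicate 2 (0.0578 and 0.117) or DN replicate 2 (0.0673 and 0.0779), and with a pseudocount of 1 (0.43 and 0.65).

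**Figure D5:**
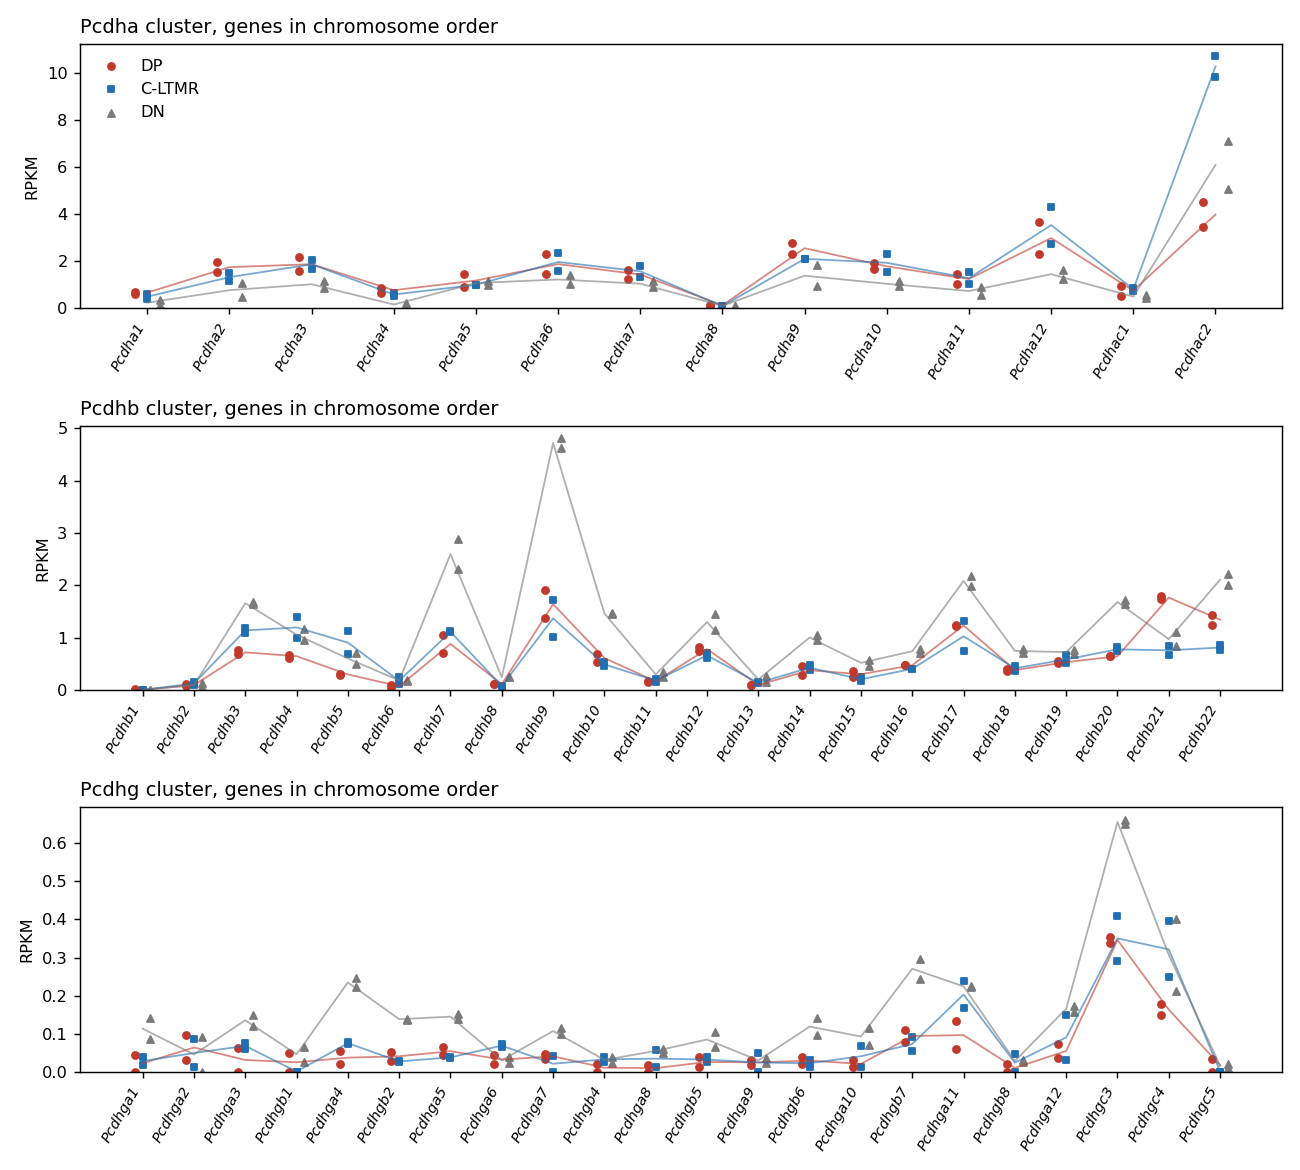
RPKM (y axis from 0) of every Pcdha, Pcdhb and Pcdhg gene (x, in chromosome order), with a point for each library of DP, C-LTMR and DN and a line through the means of 2 libraries as a guide to the eye. Pcdhac2 is the highest gene (9.85 and 10.7 RPKM in C-LTMR) and Pcdhb9 the highest Pcdhb gene (4.81 and 4.63 RPKM in DN). The higher Pcdhb level in DN holds for RPKM as deposited and not for the median under quantile normalization (0.19 and 0.22, beside 0.15 and 0.17 over all genes). It also holds for the Pcdhb sum under the pan-sensory-neuron scaling (27.3 in DN beside 14.3 in DP and 10.97 in C-LTMR).

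The Pcdhb cluster, whose genes each lie in 1 exon, had medians below 0 against DN on RPKM as deposited (-0.71 and -0.74, beside -0.19 and -0.09 over all genes). Of the 21 tested genes, 6 (28.6%) were called higher in DN than in DP, near the 25.1% of all genes, and 8 (38.1%) higher in DN than in C-LTMR, against 23.1%. Under quantile normalization 1 was called against DP, higher in DP, and 3 against C-LTMR, 1 of them higher in DN. The medians were 0.19 and 0.22, beside 0.15 and 0.17 over all genes. Of all 15004 genes, 2685 and 2560 were called higher in DN under that setting. The most abundant Pcdhb gene was Pcdhb9, at 1.90 and 1.38 RPKM in DP, 1.72 and 1.01 in C-LTMR and 4.81 and 4.63 in DN, with both DN libraries above the rest. It was called lower in DP (-1.49, SE 0.27, limma BH-adjusted p = 0.00285) and in C-LTMR (-1.76, SE 0.27, adjusted p = 0.00139) than in DN, the first not under quantile normalization (-0.92). Pcdhb7 was at 1.05 and 0.707 RPKM in DP, 1.12 and 1.10 in C-LTMR and 2.88 and 2.30 in DN (DP minus DN -1.47, SE 0.22, adjusted p = 0.00134). Pcdhb20 was at 0.643 and 0.644 RPKM in DP, 0.739 and 0.811 in C-LTMR and 1.72 and 1.63 in DN (DP minus DN -1.26, SE 0.17, adjusted p = 0.000775). Pcdhb10 was at 0.683 and 0.533 RPKM in DP, 0.525 and 0.451 in C-LTMR and 1.47 and 1.45 in DN (C-LTMR minus DN -1.41, SE 0.20, adjusted p = 0.000978). For these genes too DN was above the other subsets without overlap. Pcdhb22 was at 0.762 and 0.858 RPKM in C-LTMR, 1.25 and 1.44 in DP and 2 and 2.21 in DN, and was called lower in C-LTMR than in DN (-1.28, SE 0.17, adjusted p = 0.000792). The calls of Pcdhb7, Pcdhb10, Pcdhb20 and Pcdhb22 against DN all ended under quantile normalization and with a pseudocount of 1.

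Between DP and C-LTMR, Pcdhb5 and Pcdhb21 were the Pcdhb genes called, in opposite directions. Pcdhb5 was at 0.283 and 0.310 RPKM in DP, 1.12 and 0.682 in C-LTMR and 0.501 and 0.701 in DN (DP minus C-LTMR -1.30, SE 0.28, limma BH-adjusted p = 0.0137). Pcdhb21, named after its values were seen, was at 1.8 and 1.73 RPKM in DP, 0.668 and 0.845 in C-LTMR and 1.10 and 0.837 in DN (1.13, SE 0.20, adjusted p = 0.00688). The Pcdhb5 call was lost without DP replicate 1 (adjusted p = 0.0849), DP replicate 2 (0.0649) or C-LTMR replicate 1 (0.0767), and the Pcdhb21 call without DP replicate 1 (0.0574) or C-LTMR replicate 1 (0.98, under the fold criterion). Both ended with a pseudocount of 1 (-0.54 and 0.66), and the Pcdhb5 call also under the pan-sensory-neuron scaling (-0.95). Pcdhb1 was the Pcdhb gene below the filter, with an estimated 1 read in all 6 libraries.

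The Pcdhg cluster was barely detected. Only 6 of its 22 genes passed the filter, and the other 16 had an estimated 6.28 to 42.6 reads over all 6 libraries. The median log2 fold change of the genes that passed was -0.78 for DP and -0.66 for C-LTMR against DN, beside -0.19 and -0.09 over all genes. Under quantile normalization it was -0.01 and 0.28, beside 0.15 and 0.17 over all genes. The highest, Pcdhgc3, a C-type gene, was at 0.353 and 0.339 RPKM in DP, 0.291 and 0.410 in C-LTMR and 0.662 and 0.651 in DN and was called only in C-LTMR against DN under the pan-sensory-neuron scaling (-1.12). Of the 6 tested genes, 1 (16.7%) was called higher in DN than in DP and 1 (16.7%) than in C-LTMR. Both shares were below the 25.1% and 23.1% of all genes. Pcdhga4 was called lower in DP than in DN (-1.30, SE 0.25, limma BH-adjusted p = 0.00424), from 0.0197 and 0.0534 RPKM in DP against 0.222 and 0.246 in DN. Pcdhgb7 was called lower in C-LTMR than in DN (-1.11, SE 0.25, adjusted p = 0.00883), from 0.0549 and 0.0897 RPKM against 0.297 and 0.244, but not without C-LTMR replicate 1 (adjusted p = 0.0548). Both calls ended under quantile normalization (-0.59 and -0.16) and with a pseudocount of 1 (-0.25 and -0.24). Just outside the filter were Pcdhga3, Pcdh15 and Pcdhga5 with means of 0.0777 to 0.0784 RPKM, and just inside Pcdhb2, Pcdhga12 and Pcdha8 with 0.103 to 0.109.

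Genes that work with cadherins were taken from lists. Of 12 catenins and junction partners, 1 was called higher and 2 lower in DP against C-LTMR, 1 and 4 in DP against DN, and 1 and 4 in C-LTMR against DN, with medians of -0.20, -0.90 and -0.69, beside -0.05, -0.19 and -0.09 over all genes. The 33.3% called higher in DN in both comparisons stands beside 25.1% and 23.1% of all genes, and the 8.33% and 16.7% between DP and C-LTMR beside 6.54% and 8.56%. Ctnnb1 (beta-catenin) was the highest, with means of 172 ± 10.1 RPKM for DP, 126 ± 0.557 for C-LTMR and 143 ± 9.83 for DN, and was not called. Ctnnd2 (delta-catenin), a neuronal member of the p120 family, was higher in DN at 34.8 ± 6.15 RPKM than in DP (6.69 ± 0.827, DP minus DN -2.36, SE 0.19, limma BH-adjusted p = 9.17e-05) and C-LTMR (7.77 ± 1.71, -2.16, SE 0.19, adjusted p = 0.000131). Pkp2, a desmosomal plakophilin, and Ctnna3, an alpha-catenin, were also called higher in DN than in DP, at 1.77 ± 0.321 and 0.494 ± 0.0212 RPKM there. Of 7 genes of cadherin cleavage, Adam10, the sheddase of N- and E-cadherin, was the gene called, higher in DN (23.0 ± 2.23 RPKM) than in DP (9.84 ± 0.306, -1.21, SE 0.11, adjusted p = 0.000114) and in C-LTMR (9.39 ± 0.141, -1.28, SE 0.11, adjusted p = 9e-05). This is 14.3% of the list, below the 25.1% and 23.1% of all genes called higher in DN. The list medians were -0.38 in DP minus DN and -0.24 in C-LTMR minus DN, beside -0.19 and -0.09 over all genes.

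Of 21 atypical and other cadherin superfamily genes in the table, 10 were tested. Against DN, 2 were higher and 6 lower in DP, and 2 higher and 3 lower in C-LTMR, while 3 were lower in DP than in C-LTMR, with medians of -1.52, -0.35 and -0.62. In percent of those tested, 20% and 60% were higher and lower in DP than in DN, and 20% and 30% in C-LTMR than in DN. Over all genes, 7.78% and 8.64% were called higher than in DN, 25.1% and 23.1% lower than in DN, and 8.56% lower in DP than in C-LTMR. The medians over all genes were -0.19, -0.09 and -0.05, in the same order. Clstn2, a calsyntenin of synapses, averaged 6.38 ± 0.297 RPKM for DP, 12.1 ± 0.892 for C-LTMR and 0.727 ± 0.233 for DN (C-LTMR minus DN 3.91, SE 0.20, limma BH-adjusted p = 1.51e-05). Fat3, a giant cadherin that shapes neurites, averaged 1.96 ± 0.79 RPKM for C-LTMR, 0.193 ± 0.113 for DP and 0.0387 ± 0.00256 for DN, and was called higher in C-LTMR than in DN (3.83, SE 0.37, adjusted p = 0.000181). Clstn3 was lowest in DP, at 0.543 ± 0.0144 RPKM against 3.02 ± 0.0561 in C-LTMR and 4.98 ± 1.86 in DN (DP minus DN -2.93, SE 0.25, adjusted p = 0.000108). Of 15 genes linked to promoter choice in the clusters, 2 were called higher in DN than in DP and than in C-LTMR, namely Rest and Dnmt3b (DP minus DN -2.02, SE 0.34, adjusted p = 0.0021, and -1.64, SE 0.25, adjusted p = 0.00144). These are 13.3% of that list, below the 25.1% and 23.1% of all genes, and its medians were -0.37 and -0.34 against DN. Of 15 cytoplasmic partners (medians -0.15 and -0.04 against DN), 2 (13.3%, also below the 25.1% of all genes) were called higher in DN than in DP, the actin regulator Marcks (-2.24, SE 0.15, adjusted p = 3.81e-05) and the kinase Ptk2b (-1.995, SE 0.38, adjusted p = 0.00389).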

How the data were processed

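RNA of 6 libraries, 2 for each sorted subset, was amplified and made into TruSeq libraries, per the labels' protocols, and sequenced on an Illumina HiSeq instrument per the series' design text. CASAVA 1.8.2, edgeR 2.6.2 and the build GRCm38 (mm10) are named per the submitters' processing notes. What aligner, annotation and strand setting were used is not given in the sources used here. Deposited by the authors were 1 table of RPKM for 23029 genes and another of TMM-normalized signal for 6620 genes, which holds 6 of the members. Levels and the main test used the RPKM values as deposited, with no further scaling. Whole reads were not recovered: 70.7% of 167 low values of olfactory receptor, Pcdhb and Pcdhg genes came within 0.05 read of a whole number. The depth was chosen to make such a share of these same values largest, so the 10% of evenly spread values is not its chance level. No count model was fitted. limma 3.58.1 (R 4.3.3) was run with a trend on log2(RPKM + 0.1) of the 15004 genes with a mean of at least 0.1 RPKM, with Benjamini-Hochberg adjustment over all of them. The 6 libraries left 3 residual degrees of freedom. The fit was tested on simulated data. Python 3.11.15 with numpy 2.4.6, pandas 2.3.3 and matplotlib 3.10.9 served for the rest. Promoters, gene positions and motif shares came from RefSeq tables of GRCm38.p6, and 22 members had a promoter window. Members, gene lists and motifs were chosen with earlier results of these data known. Library values are given for the highest member of each class and for called members, up to the 6 with the largest change in a class. For lists of partners, the highest gene and the 3 with the largest called change could be named. Alternatives were pseudocounts of 0.01 and 1, other filters, quantile normalization, scaling to 20 pan-sensory-neuron genes, the TMM-normalized table, a fit without the trend, a fit of the 4 libraries compared, a replicate block and leaving out each library.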

Additional observations from a re-analysis of the deposited data

How the results depend on the processing

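No called difference of a named member changed sign in any alternative. Of the member calls, 9 of 16 (DP against C-LTMR), 25 of 29 (DP against DN) and 21 of 31 (C-LTMR against DN) held when each library was left out in turn, 13, 18 and 19 under quantile normalization, and 11, 29 and 29 under the pan-sensory-neuron scaling. Leaving out 1 library gave 9 to 15, 26 to 32 and 28 to 32 called members, lowest for DP against C-LTMR without DP replicate 1. With a pseudocount of 1, 7, 15 and 13 members and 1194, 3140 and 3013 of all genes were called, since it compresses low values. The TMM-normalized table gave 5, 5 and 5 of its 6 members and 843, 1645 and 1562 genes, from fewer genes tested, another normalization and a pseudocount of 1 together. A minimum mean of 1 RPKM left 33 members tested, where the main test had 67. Of these, 17 and 18 were called against DN, beside 3243 and 3059 of 11613 genes (27.9% and 26.3%). Both settings tested fewer members and genes, so their lower counts do not by themselves mean weaker differences. Scaled to pan-sensory-neuron genes, the summed RPKM was 24.8, 24.4 and 18.04 for Pcdha, where C-LTMR was above DP as deposited, 14.3, 10.97 and 27.3 for Pcdhb and 1.34, 1.37 and 3.35 for Pcdhg in DP, C-LTMR and DN, and the cause was not tested. With the replicate block, 16, 29 and 31 members and 2341, 4981 and 4782 genes were called. The titles give a number, and the descriptions of all second libraries end in bis, but what these mark is not stated. Deviations of same-numbered libraries correlated at 0.30, 0.096 and 0.24, all above 0, which does not decide whether they formed a series. The numbers were not taken as pairs in the main test. With 2 libraries per subset, no library could be tested as an outlier, and levels under about 0.03 RPKM rest on a few reads.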
